A study of Mus musculus with 12 samples.

Results

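The 42 genes described here encode the machinery that copies DNA and the factors that take a cell into S phase. They were taken as a fixed list of names, and each was represented by the probe set that names 1 gene and has the highest mean over all 12 arrays. All 42 were measured, of 18193 genes in all. RNA came from bone marrow-derived macrophages (BMDMs), grown in 20 ng/mL of M-CSF, of mice aged 6 to 10 weeks. WT mice were C57BL/6, and the Nos2-/- mice were of the line B6.129P2-Nos2tm1Lau/J. Nos2-/- mice lack inducible nitric oxide synthase in every cell, so the cells also developed without it. Stimulated cultures of each genotype were kept for 8 h with LPS at 100 ng/mL together with IFNγ at 50 ng/mL. Untreated cultures of each genotype received vehicle (PBS), although the labels call them samples from before stimulation. Each of the 4 groups had 3 biological replicates, each on 1 Affymetrix Mouse Genome array, and signals are on the log2 scale, so that a difference of 1 is a change of 2-fold. Where a pair of log2 differences is given for a gene, WT comes first and Nos2-/- next.

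Replication starts at origins, where the origin recognition complex, Cdc6 and Cdt1 load the MCM helicase before S phase begins. Cyclin-dependent kinases then activate the helicase, polymerases with their sliding clamp copy the strands, and enzymes of deoxynucleotide synthesis supply the building blocks. Many of these genes are targets of E2F transcription factors and are transcribed around the entry into S phase. BMDMs growing in M-CSF contain dividing cells, and LPS and IFNγ are known to halt macrophage proliferation.

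Before the results, the arrays were checked. Nos2 read 5.45, 5.40 and 5.65 in untreated WT and 9.73, 9.81 and 9.64 in stimulated WT. In Nos2-/- cells it read 5.15, 5.41 and 5.36 untreated and 7.74, 7.45 and 7.88 stimulated, so stimulated Nos2-/- arrays lay below every stimulated WT array and above all untreated ones. Whether its probe set lies inside the deleted part of the gene was not tested. Of the macrophage markers, Lyz2 had group means of 14.30 to 14.56, and the linear signals of the 10 macrophage genes summed to between 71047 and 75910 on every array, a sum led by Lyz2. Of these 10 genes 7 were called lower and 2 higher after stimulation in each genotype, with the mannose receptor gene Mrc1 lowest (log2 difference -2.90 in WT and -2.64 in Nos2-/-). For this count and that of the neutrophil genes below, 28.4% of all genes were called lower and 29.6% higher in WT. In Nos2-/- these shares were 28.2% and 26.3%. Markers of progenitors (7 of 8 measured) summed to 208 to 253, with Kit at group means of 3.58 to 3.87, while Cd34 went the way of the replication genes, from group means of 6.10 to 3.88 in WT and of 5.80 to 3.93 in Nos2-/-. The summed signal of 4 dendritic cell genes went up with stimulation, from 144 to 157 to 302 to 395 in WT and from 151 to 159 to 398 to 499 in Nos2-/-, led by Ccr7. That of 5 fibroblast genes, led by Dcn, was 87 to 94 untreated and 115 to 130 stimulated over both genotypes, and those of T and NK, B and erythroid cells were at most 278. The summed signal of 5 neutrophil genes moved with stimulation, from 922 to 1431 in untreated WT to 5811 to 6027 in stimulated WT and from 1143 to 1802 to 7474 to 7790 in Nos2-/-, led by S100a8, which activated macrophages also express. Of these 5 genes 2 were called higher and 0 lower in each genotype. Camp rose as well, from group means of 6.27 to 7.09 in WT and of 6.19 to 7.15 in Nos2-/-. Ltf went from 6.33 to 6.25 in WT and from 6.43 to 6.22 in Nos2-/-. That of 3 megakaryocyte genes, led by Pf4, moved the other way, from 6239 to 7142 to 2395 to 2953 in WT and from 6156 to 6678 to 1974 to 2387 in Nos2-/-. Pf4 itself fell, from group means of 12.66 to 11.27 in WT and of 12.62 to 10.97 in Nos2-/-. Itga2b went up instead, from 6.32 to 6.74 in WT and from 6.47 to 6.65 in Nos2-/-. Gp9 went from 6.24 to 6.38 in WT and from 6.39 to 6.33 in Nos2-/-. The part of these cell types in the results below was not tested.

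The array that stood furthest apart for the replication genes was untreated Nos2-/- replicate 3. It was the lowest of its group for 39 of the 42 genes (92.9%, against 32.4% of all other genes), at a median of 0.38 below the mean of the other 2 arrays. The mitosis markers were low on it too, with a median deviation of 0.08 from their own means over all arrays, against 1.15 and 0.89 on the other untreated Nos2-/- arrays. Stimulated Nos2-/- replicate 3 was the lowest of its group for 64.3% of the 42 genes (36.1% of other genes) and stimulated WT replicate 1 for 57.1% (34.8%). Where leaving out one of these arrays moved a median of the 42 genes or a call between genotypes, that value is given.

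After stimulation the replication genes fell together in both genotypes. In WT, 39 of 42 were called lower and 0 higher by limma (adjusted p under 0.05 over all genes), when 28.4% of all genes were called lower and 29.6% higher. In Nos2-/-, 40 were lower and 0 higher, against 28.2% and 26.3% of all genes, and the 39 genes that fell in WT also fell there. The median log2 difference of the 42 genes was -1.61 in WT and -1.68 in Nos2-/-, when the median of all genes was 0.07 and 0.05. Without untreated Nos2-/- replicate 3 the Nos2-/- median was -1.78. In 40 genes every stimulated WT array was below every untreated WT array, an order that 30.4% of all genes had, and in Nos2-/- it was likewise 40, against 29.9%. Falls were large. In WT, 27 genes dropped at least 2-fold, 17 at least 4-fold and 9 at least 8-fold, when 9.14%, 2.15% and 0.57% of all genes fell by that much. In Nos2-/- the numbers were 31, 18 and 9, against 9.65%, 2.41% and 0.61%, and 32, 19 and 9 without untreated Nos2-/- replicate 3. RNA from a whole culture was measured, so fewer cells in S phase and less of each transcript per cell cannot be told apart.

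**Figure D1:**
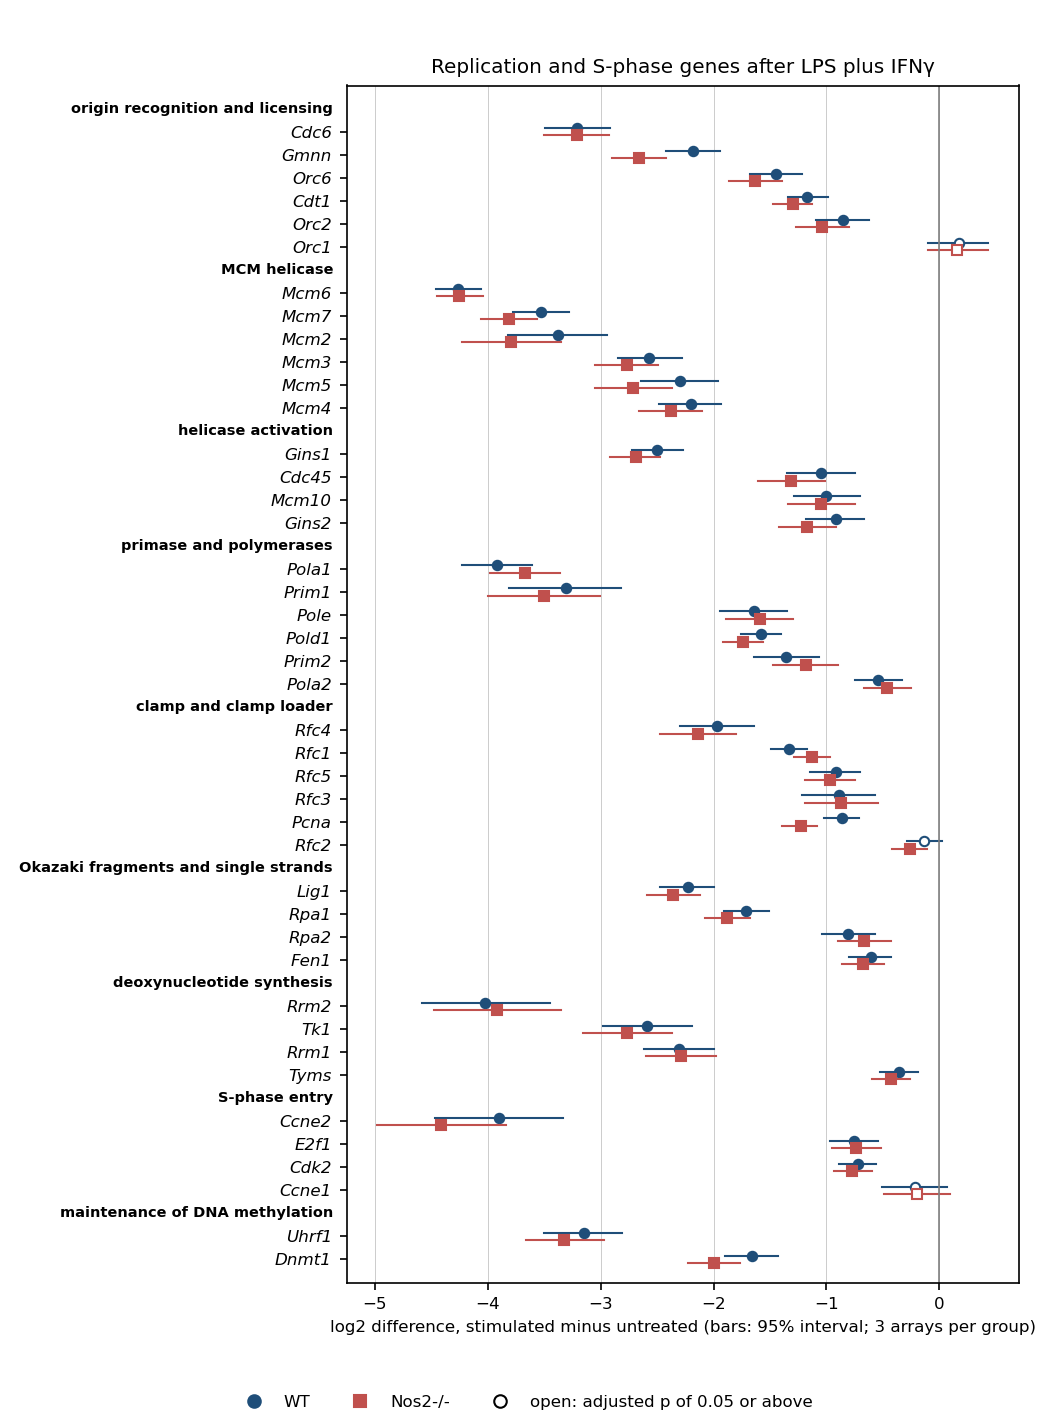
Log2 difference of each of the 42 genes between stimulated and untreated cells, by role, in WT (circles) and Nos2-/- (squares), with 95% intervals from limma over 3 arrays per group, and open symbols were not called. All genes but Orc1 lie left of 0, and within each gene the genotypes lie close to each other.

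RefSeq promoters of GRCm38.p6, from 250 bases before to 50 bases after each annotated start, were on hand for 34 of the 42 genes. They were searched on both strands for TTTCGCGC, TTTGGCGC, TTTCCCGC and TTTGCCGC, which are 8-letter forms of the motif bound by E2F factors. A match was found in 14 of the 34 genes (41.2%), against 2.6% of the 27025 genes with a promoter and 2.3% of all 32851 promoters. Of the 14, 8 had 1 match, 5 had 2 and Mcm6 had 3, and in Mcm5 and Mcm6 a pair of matches on opposite strands overlapped. For Cdc6 and Orc1, with a match, and E2f1 and Rfc1, without, the window lay inside the gene as annotated. The outermost start of these genes was not searched. The CCAAT motif stood in 22 of the 34 (64.7%, against 41.1% of genes), and TTTGAA, the cell-cycle homology region of late cell-cycle genes, in 4 (11.8%, against 20.2%). The 14 genes with an E2F match had a median log2 difference of -2.26 in WT and -2.54 in Nos2-/-, and the 20 without of -1.02 and -1.18, as a description with no test. Both sets held large and small changes, from -4.26 to 0.17 in WT with a match and from -4.02 to -0.22 without.

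Promoters are printed for 5 genes that show this range, 5′ to 3′ on the strand of the gene, with E2F matches in capitals. Mcm6 (chr1:128359656-128359955 on the minus strand), Pola1 (chrX:93632106-93632405 on the minus strand) and Cdc6 (chr11:98907901-98908200 on the plus strand) hold matches and fell by 8-fold or more, Rrm2 (chr12:24708004-24708303 on the plus strand) fell as far with no match in the window, and Orc1 (chr4:108579204-108579503 on the plus strand) holds a match and was not called. In Mcm6 the capitals run over the overlapping pair. The windows of Cdc6 and Orc1 lie inside the gene as annotated. Another probe set of Orc1 was called lower in both genotypes, as given below.
Mcm6: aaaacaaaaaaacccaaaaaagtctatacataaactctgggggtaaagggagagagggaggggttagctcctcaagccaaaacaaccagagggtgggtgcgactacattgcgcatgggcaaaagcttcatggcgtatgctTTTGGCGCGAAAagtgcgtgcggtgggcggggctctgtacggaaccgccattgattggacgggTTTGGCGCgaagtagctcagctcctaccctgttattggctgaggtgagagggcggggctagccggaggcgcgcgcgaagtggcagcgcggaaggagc
Pola1: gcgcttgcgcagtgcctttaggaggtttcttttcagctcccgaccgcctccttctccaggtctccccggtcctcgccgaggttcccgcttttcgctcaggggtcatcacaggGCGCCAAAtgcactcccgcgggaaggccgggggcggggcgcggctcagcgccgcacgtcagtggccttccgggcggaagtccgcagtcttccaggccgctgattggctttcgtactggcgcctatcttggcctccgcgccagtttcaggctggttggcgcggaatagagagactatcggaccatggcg
Cdc6: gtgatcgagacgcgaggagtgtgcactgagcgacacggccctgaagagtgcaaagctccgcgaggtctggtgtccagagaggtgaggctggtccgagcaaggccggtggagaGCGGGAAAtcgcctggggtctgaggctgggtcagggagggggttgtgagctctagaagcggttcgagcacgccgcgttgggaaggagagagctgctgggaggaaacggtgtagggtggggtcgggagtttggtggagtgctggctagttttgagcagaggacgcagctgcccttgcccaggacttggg
Rrm2: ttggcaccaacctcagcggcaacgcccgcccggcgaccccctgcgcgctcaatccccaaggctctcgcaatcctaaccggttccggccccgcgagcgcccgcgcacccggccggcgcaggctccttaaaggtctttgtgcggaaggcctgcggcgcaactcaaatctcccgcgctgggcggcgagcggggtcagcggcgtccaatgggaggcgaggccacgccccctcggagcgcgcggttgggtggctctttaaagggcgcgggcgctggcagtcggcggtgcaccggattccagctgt
Orc1: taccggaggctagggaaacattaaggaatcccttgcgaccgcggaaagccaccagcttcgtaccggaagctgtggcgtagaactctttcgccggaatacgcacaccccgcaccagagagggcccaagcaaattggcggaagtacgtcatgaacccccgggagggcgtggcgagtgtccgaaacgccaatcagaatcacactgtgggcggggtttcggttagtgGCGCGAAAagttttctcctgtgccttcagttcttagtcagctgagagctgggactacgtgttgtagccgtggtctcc

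**Figure D2:**
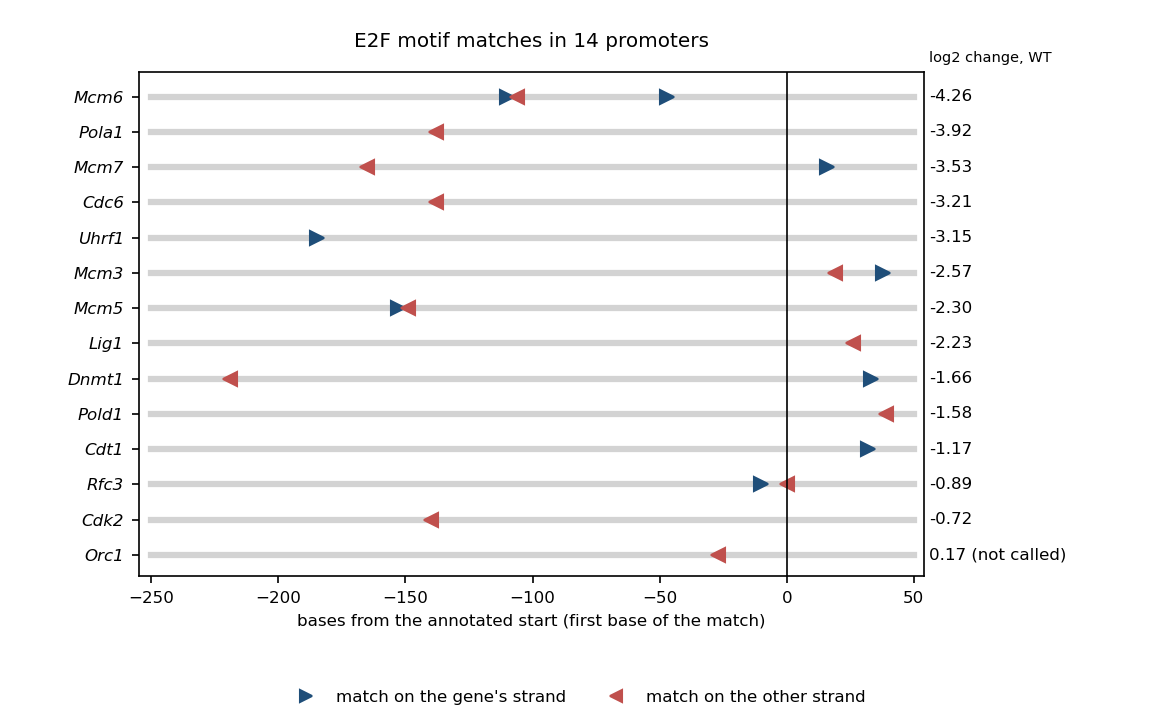
Distance of each E2F motif match from the annotated start, in bases, for the 14 genes with a match, ordered by the log2 difference in WT at the right. Matches lie on both sides of the start, and Orc1, with a match at -27, is the gene that was not called on the probe set used.

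Among genes of origin recognition and licensing, 5 of 6 fell in each genotype. For this and the counts by role that follow, 28.4% of all genes were called lower in WT and 28.2% in Nos2-/-. Cdc6, which brings the helicase to origins, read 6.86, 6.91 and 6.76 in untreated WT and 3.72, 3.57 and 3.62 in stimulated WT. In Nos2-/- it read 7.12, 6.97 and 6.45 untreated and 3.76, 3.57 and 3.57 stimulated. Untreated and stimulated arrays were far apart, and the log2 difference was -3.21 in each genotype (SE 0.13, limma adjusted p = 8.8e-11 in WT and 7.5e-11 in Nos2-/-). Gmnn encodes geminin, the inhibitor of Cdt1 that keeps origins from being licensed again. It read 10.36, 10.42 and 10.35 in untreated WT and 8.07, 8.16 and 8.38 after stimulation, with 10.65, 10.52 and 10.20 against 7.89, 7.86 and 7.65 in Nos2-/-. The groups did not overlap, and the log2 difference of Gmnn was -2.18 in WT and -2.66 in Nos2-/- (SE 0.11 each, limma adjusted p = 8.0e-10 and 9.0e-11). Its target Cdt1 fell too (-1.17 and -1.30), as did the origin recognition subunits Orc6 (-1.45 and -1.63) and Orc2 (-0.85 and -1.04).

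Orc1, a further subunit of the origin recognition complex, was the exception. It read 5.96, 5.86 and 5.51 in untreated WT and 6.05, 6.06 and 5.72 in stimulated WT, and 5.87, 5.71 and 5.68 against 5.80, 5.91 and 6.04 in Nos2-/-. Treated and untreated arrays overlapped in both genotypes, and the log2 differences of 0.17 and 0.16 were not called (limma adjusted p = 0.2544 and 0.2747). A dimmer probe set of the gene gave -1.0 in WT and -1.05 in Nos2-/- (limma adjusted p = 3.1e-04 and 2.1e-04 over all probe sets that name 1 gene), so the reading of Orc1 depends on the probe set.

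The 6 subunits of the MCM helicase, which unwinds DNA ahead of the fork, fell together, with a median log2 difference of -2.97 in WT and -3.28 in Nos2-/-. Mcm6 had the largest WT change of the 42 genes. It read 11.83, 12.01 and 11.94 untreated and 7.69, 7.49 and 7.83 stimulated in WT, and 11.80 to 12 against 7.76, 7.74 and 7.57 in Nos2-/-. Its log2 differences of -4.26 and -4.25, falls of 19.19-fold and 18.98-fold, were many times the spread within groups (SE 0.09 each, limma adjusted p = 1.9e-13 and 2.0e-13). Mcm7 read 11.11, 11.30 and 11.22 and then 7.52, 7.73 and 7.78 in WT, and 11.42, 11.35 and 10.98 and then 7.53, 7.53 and 7.25 in Nos2-/-. The groups did not overlap, and the log2 differences were -3.53 and -3.81 (SE 0.12, limma adjusted p = 9.6e-12 and 3.9e-12). The log2 differences were -3.38 and -3.79 for Mcm2, -2.57 and -2.77 for Mcm3, -2.30 and -2.71 for Mcm5 and -2.20 and -2.38 for Mcm4.

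Genes that turn the loaded helicase on had a median log2 difference of -1.02 in WT and -1.24 in Nos2-/-, which was not tested against that of its subunits. Gins1 encodes a subunit of GINS, which joins the helicase. It read 7.87, 8.09 and 7.95 untreated and 5.28, 5.50 and 5.65 stimulated in WT, and 8.13, 8.12 and 7.81 against 5.35, 5.34 and 5.29 in Nos2-/-, without overlap. Its log2 differences were -2.50 and -2.69 (SE 0.10, limma adjusted p = 9.7e-11 and 4.0e-11). Cdc45, the other helicase partner, read 6.95, 6.82 and 6.95 and then 5.95, 5.78 and 5.85 in WT, and 7.36, 7.01 and 6.70 and then 5.74, 5.49 and 5.91 in Nos2-/-. It fell without overlap (-1.05 and -1.31, SE 0.14, limma adjusted p = 1.7e-05 and 1.7e-06), although a dimmer probe set of the gene was called slightly higher, at 0.25 and 0.23. Gins2, another GINS subunit, fell (-0.92 and -1.17), as did Mcm10, which helps to activate the helicase (-1.0 and -1.05).

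The primase and polymerase genes all fell, 6 of 6 in each genotype. Pola1, the catalytic subunit of the polymerase that extends primers, read 8.35, 8.44 and 8.17 untreated and 4.68, 4.29 and 4.24 stimulated in WT. In Nos2-/- it read 8.33, 8.39 and 7.91 and then 4.52, 4.74 and 4.37. The groups did not overlap, and the log2 differences of Pola1 were -3.92 and -3.67 (SE 0.14, limma adjusted p = 2.8e-11 and 4.7e-11). Prim1, the catalytic subunit of primase, read 8.32, 8.46 and 8.25 and then 4.70, 5.18 and 5.20 in WT, and 8.65, 8.54 and 7.88 and then 5.37, 4.74 and 4.44 in Nos2-/-. It varied more between replicates than Pola1, and its log2 differences of -3.31 and -3.50 had an SE of 0.23 (limma adjusted p = 1.7e-08 and 8.6e-09). The partners of these enzymes changed less, with Prim2 at -1.36 and -1.18 and Pola2 at -0.54 and -0.46. Pole and Pold1, the catalytic subunits of the leading and lagging strand polymerases, fell as well, by log2 differences of -1.64 and -1.59 for Pole and of -1.58 and -1.74 for Pold1.

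Of the sliding clamp and its loader, 5 of 6 genes fell in WT and 6 of 6 in Nos2-/-. Rfc4 read 8.16, 8.11 and 8.01 untreated and 5.88, 6.08 and 6.42 stimulated in WT, and 8.47, 8.29 and 7.87 against 6.12, 6.23 and 5.88 in Nos2-/-. Rfc1, the large subunit of the loader, read 8.75, 8.80 and 8.82 and then 7.36, 7.54 and 7.48 in WT, and 8.67, 8.72 and 8.69 and then 7.62, 7.65 and 7.41 in Nos2-/-. Stimulated arrays were lower throughout for both genes, with log2 differences of -1.97 and -2.14 for Rfc4 (SE 0.15, limma adjusted p = 6.6e-08 and 2.5e-08) and of -1.33 and -1.13 for Rfc1 (SE 0.07, limma adjusted p = 1.9e-09 and 9.6e-09). Rfc5 (-0.92 and -0.97) and Rfc3 (-0.89 and -0.87) fell too. Rfc2 hardly moved, from 8.58, 8.65 and 8.59 to 8.47, 8.46 and 8.48 in WT (log2 difference -0.14, limma adjusted p = 0.1147) and from 8.73, 8.71 and 8.53 to 8.47, 8.28 and 8.42 in Nos2-/- (-0.26, limma adjusted p = 0.0059). Its arrays did not overlap in either genotype, and its other 2 probe sets were called lower in both.

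Pcna, the clamp that holds polymerases on DNA, read 12.94, 12.97 and 12.98 in untreated WT and 12.15, 11.97 and 12.19 in stimulated WT. In Nos2-/- it read 13.07, 13.01 and 12.89 and then 11.80, 11.76 and 11.72. Stimulated arrays were lower in both genotypes, with log2 differences of -0.86 and -1.23 (SE 0.07, limma adjusted p = 1.3e-07 and 2.6e-09), and the stimulated Nos2-/- arrays were the lowest of all.

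All 4 genes for finishing lagging-strand fragments and covering single strands fell in each genotype. Lig1, the ligase that joins the fragments, read 9.60, 9.75 and 9.53 untreated and 7.47, 7.34 and 7.37 stimulated in WT, and 9.69, 9.78 and 9.28 against 7.25, 7.26 and 7.16 in Nos2-/-. Rpa1, the large subunit of the single-strand binding protein RPA, read 10.85, 10.89 and 10.83 and then 9.17, 9.12 and 9.14 in WT, and 10.90, 10.87 and 10.67 and then 9.06, 9.04 and 8.70 in Nos2-/-. Neither gene had overlapping groups, and the log2 differences were -2.23 and -2.36 for Lig1 (SE 0.11, limma adjusted p = 4.4e-10 and 2.2e-10) and -1.71 and -1.88 for Rpa1 (SE 0.09, limma adjusted p = 1.3e-09 and 4.3e-10). Its partner Rpa2 fell (-0.81 and -0.67). Fen1, the flap endonuclease, fell as well (-0.61 and -0.68), and further on a dimmer probe set (-1.61 and -1.63), so that its size depends on the probe set.

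Deoxynucleotide synthesis held some of the largest falls. Rrm2, the regulated subunit of ribonucleotide reductase, read 8.67, 8.52 and 8.18 in untreated WT and 4.15, 4.62 and 4.55 after stimulation. Untreated Nos2-/- arrays spread widely, at 8.90, 8.68 and 7.60, and stimulated ones read 4.27, 4.69 and 4.47. Even the low array was well above every stimulated one, and the log2 differences of Rrm2 were -4.02 in WT and -3.92 in Nos2-/- (SE 0.26, limma adjusted p = 9.6e-09 and 1.1e-08). Tk1, the thymidine kinase of dividing cells, read 8.37, 8.30 and 8.06 and then 5.76, 5.57 and 5.65 in WT, and 8.66, 8.40 and 7.85 and then 5.65, 5.78 and 5.17 in Nos2-/-. The groups stayed apart, with log2 differences of -2.59 and -2.77 (SE 0.18, limma adjusted p = 2.4e-08 and 1.1e-08). Rrm1, the catalytic subunit of the reductase, fell too (-2.31 and -2.29). For Tyms, which makes thymidylate, the probe sets that name it alone were dim, and the one used had group means of 3.49 to 3.91. Its log2 differences of -0.36 and -0.43 were called (limma adjusted p = 0.0013 and 3.3e-04), but another of its 4 probe sets was called higher, at 0.26 and 0.33. A brighter probe set that names both Tyms and Tyms-ps was left out of the fits. It read 7.5, 7.384 and 7.055 and then 6.725, 6.889 and 6.859 in WT. In Nos2-/- it read 7.742, 7.603 and 7.088 and then 6.976, 6.853 and 6.621, so stimulated arrays were lower without overlap in both genotypes.

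At the entry into S phase the E-type cyclins differed. Ccne2 read 8.86, 8.84 and 8.47 in untreated WT and 4.51, 4.91 and 5.07 in stimulated WT, and 9.29, 9.12 and 7.95 against 4.36, 4.46 and 4.30 in Nos2-/-. Its log2 difference was -3.90 in WT and -4.41 in Nos2-/-, the largest change of the 42 genes there (SE 0.26, limma adjusted p = 1.5e-08 and 3.6e-09). Ccne1 read 7.02, 6.87 and 6.62 and then 6.59, 6.61 and 6.65 in WT, and 7.21, 6.87 and 6.56 and then 6.61, 6.71 and 6.72 in Nos2-/-. Its groups overlapped, and log2 differences of -0.22 and -0.20 were not called (limma adjusted p = 0.1799 and 0.2253), nor was its other probe set. Without untreated Nos2-/- replicate 3 Ccne1 was called lower in Nos2-/- (log2 difference -0.36, limma adjusted p = 0.0216). Cdk2, the kinase that both cyclins activate, fell (-0.72 and -0.77). E2f1, the transcription factor, read 8.74, 8.86 and 8.84 and then 8.02, 8.15 and 8.00 in WT, and 8.94, 8.90 and 8.66 and then 8.25, 8.16 and 7.88 in Nos2-/-. It was lower on every stimulated array, with log2 differences of -0.76 and -0.74 (SE 0.10, limma adjusted p = 1.3e-05 and 1.7e-05).

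Both genes that copy DNA methylation onto new strands fell. Uhrf1, which recognises hemimethylated sites behind the fork, read 9.09, 9.16 and 8.93 and then 5.82, 5.78 and 6.12 in WT, and 9.32, 9.33 and 8.69 and then 6.04, 5.73 and 5.62 in Nos2-/-. Dnmt1, the maintenance methyltransferase, read 9.71, 9.85 and 9.82 and then 8.10, 8.19 and 8.09 in WT, and 9.85, 9.85 and 9.70 and then 7.91, 8.00 and 7.50 in Nos2-/-. No stimulated array reached an untreated one, and the log2 differences were -3.15 and -3.32 for Uhrf1 (SE 0.16, limma adjusted p = 7.3e-10 and 3.8e-10) and -1.66 and -2.0 for Dnmt1 (SE 0.11, limma adjusted p = 8.8e-09 and 1.1e-09).

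**Figure D3:**
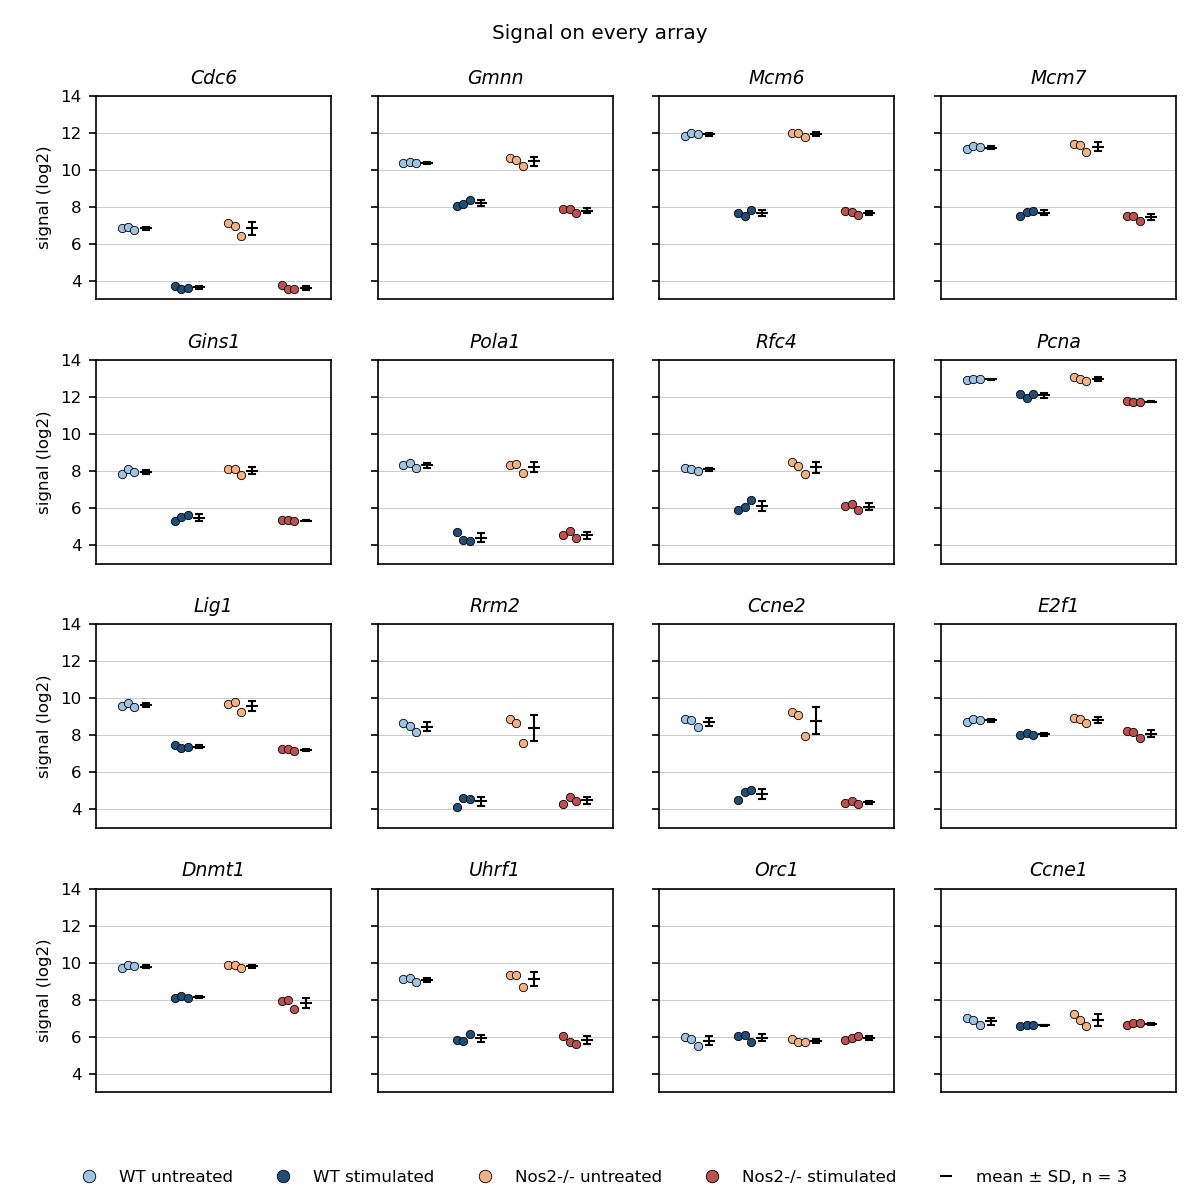
Log2 signal on every array (points, replicates 1 to 3 from left to right) with the mean ± SD of 3 arrays for 16 of the 42 genes. Untreated and stimulated arrays are apart in all but Orc1 and Ccne1, and untreated Nos2-/- replicate 3 is the low point of its group in most panels.

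Most other probe sets of these genes also fell. The 42 genes have 95 probe sets that name them alone, and 77 of these were called lower and 2 higher in WT, with 80 and 2 in Nos2-/-. Among the 70 with a mean signal at or above that of the median gene (6.12), 67 were lower in WT and 68 in Nos2-/-, and 0 were higher in either. The called rises were those of Cdc45 and Tyms. A matching share over all probe sets, or over all bright ones, is not given here. By gene, 28.4% of all genes were called lower in WT and 28.2% in Nos2-/-, with 29.6% and 26.3% higher. Those shares rest on the brightest probe set of each gene, so they are not a direct baseline for these counts. No detection call was used here, so whether the stimulated signals of Cdc6 (3.64 in WT), Pola1 (4.40), Rrm2 (4.44) and Ccne2 (4.83) were above background was not tested.

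Stimulated Nos2-/- cells were then compared with stimulated WT cells. The median log2 difference over the 42 replication genes was -0.06, and it ran from -0.10 without stimulated WT replicate 1 to -0.03 without stimulated Nos2-/- replicate 3, with -0.04 without stimulated WT replicate 3. Pcna was the 1 gene called lower and 0 were called higher by limma, when 1.91% of all genes were lower and 1.03% higher. Its stimulated arrays, given above, did not overlap between the genotypes, and Pcna was lower in Nos2-/- by 1.27-fold (log2 difference -0.34, SE 0.07, 95% interval -0.50 to -0.19, limma adjusted p = 0.0186). At an unadjusted p under 0.05, 6 of the 42 genes were lower and 1 was higher, when 8.34% and 6.72% of all genes were. The call for Pcna was lost without stimulated WT replicate 1 (adjusted p = 0.0695), stimulated WT replicate 3 (0.0745) or stimulated Nos2-/- replicate 3 (0.0667).

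Another 6 genes had stimulated arrays that did not overlap between genotypes and were not called. Gmnn was lower in Nos2-/- (log2 difference -0.40, 95% interval -0.64 to -0.16, limma adjusted p = 0.0788), and so were Dnmt1 (-0.33; 0.1459), Ccne2 (-0.46; 0.4669), Rpa1 (-0.21; 0.2903) and Lig1 (-0.17; 0.5231). Rpa2 was the other way round, at 7.76, 7.84 and 7.95 in WT and 8.24, 8.07 and 8.10 in Nos2-/- (log2 difference 0.29, 95% interval 0.05 to 0.52, limma adjusted p = 0.2154). With Pcna, 6 of the 42 genes had all Nos2-/- arrays lower and 1 had all higher, when 8.89% and 8.21% of all genes did. The 95% interval of the difference lay within 2-fold either way for 41 of the 42 genes, with Ccne2 the exception, and within 1.5-fold for 36.

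Untreated cells gave no calls. Of the 42 genes 0 were higher and 0 lower in untreated Nos2-/- than in untreated WT, when 0.00550% of all genes, 1 gene, were called in each direction by limma, and 0 of the 42 passed an unadjusted p under 0.05, when 1.95% of all genes did so as higher and 2.05% as lower. The median log2 difference was 0.03 with all arrays, and its sign turned with the untreated Nos2-/- array left out. It was -0.05 without replicate 1 (8 genes above 0 and 34 below), -0.01 without replicate 2 (18 and 24) and 0.15 without replicate 3 (40 and 2), with 0 genes called each time. Leaving out an untreated WT array gave 0.02, 0.06 and 0.01. With all arrays, the 95% interval lay within 2-fold for all 42 genes and within 1.5-fold for 40, and without untreated Nos2-/- replicate 3 for 42 and 36.

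The response to stimulation was also compared between genotypes directly, as the change in Nos2-/- minus the change in WT. None of the 42 genes was called in either direction, when 0.302% of all genes were called for a less negative or more positive change in Nos2-/- and 0.676% for the reverse. At an unadjusted p under 0.05 there were 0 in the first direction and 3 in the second, against 4.77% and 5.26% of all genes, namely Pcna (log2 difference -0.37, limma adjusted p = 0.1399), Gmnn (-0.48; 0.2506) and Dnmt1 (-0.33; 0.4901). The median was -0.13, with 30 genes below 0, against a median of -0.01 for all genes. It was -0.24 without untreated Nos2-/- replicate 3 (39 genes below 0), but -0.04 without replicate 1 (24 genes), -0.08 without replicate 2 (28 genes) and -0.07 without stimulated Nos2-/- replicate 3 (28 genes), with 0 called each time. The interval lay within 2-fold for 40 genes, all but Mcm2 and Ccne2, and within 1.5-fold for 26, and without untreated Nos2-/- replicate 3 for 38 and 24. This comparison and the one between stimulated genotypes share the stimulated arrays and are not independent of each other.

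**Figure D4:**
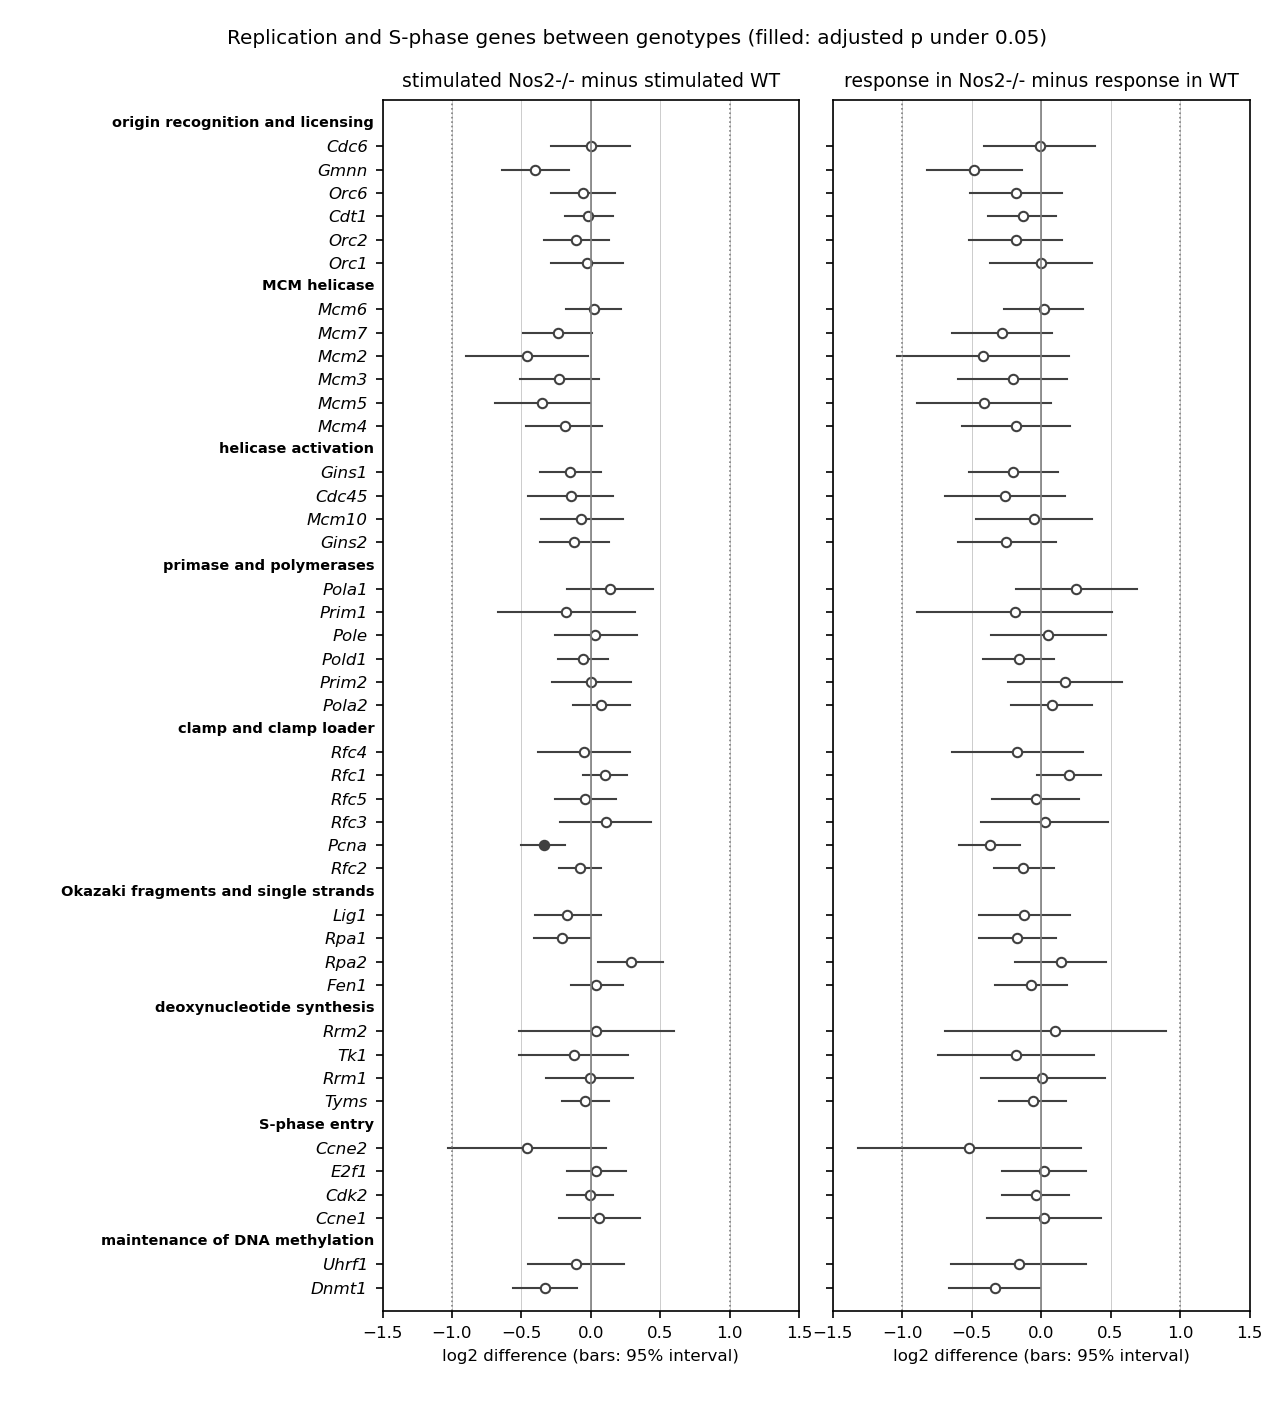
Log2 difference of each of the 42 genes between stimulated genotypes (left) and between the responses of the genotypes (right), with 95% intervals and dotted lines at 2-fold. Pcna at the left is the only filled symbol, and most intervals cross 0.

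Genes outside the 42 that work beside them were read from 7 further lists. For the counts of each list, 29.6% of all genes were called higher and 28.4% lower in WT. In Nos2-/- the shares of all genes were 26.3% and 28.2%. Among 33 other replisome and origin genes there were 23 falls and 3 rises in WT, with 25 and 4 in Nos2-/-. Among those that fell were Dscc1, a subunit of an alternative clamp loader (log2 difference -3.55 in WT and -3.64 in Nos2-/-), the polymerase subunits Pole2 (-2.96 and -2.77) and Pold2 (-2.31 and -2.45), and the nuclease Dna2 (-2.70 and -2.61). The genes that rose were Rnaseh2b (0.69 in each genotype), Mcmbp (0.51 and 0.75) and Orc4 (0.23 and 0.25), with Mcm9 in Nos2-/- (0.28). In nucleotide supply 10 of 12 measured genes fell and 2 rose in each genotype. Dut, which keeps uracil out of DNA, fell by far (-4.26 and -4.21), as did Cad, which starts pyrimidine synthesis (-2.81 and -2.78). Samhd1, which breaks deoxynucleotides down and is an interferon-response gene, went the other way. It read 10.86, 10.64 and 11.00 in untreated WT and 12.91, 12.76 and 12.91 in stimulated WT, and 10.78, 10.71 and 10.97 against 12.93, 12.82 and 13.09 in Nos2-/-, a rise of 2.03 and 2.13 (SE 0.10, limma adjusted p = 5.7e-10 and 3.1e-10). Dck, a deoxynucleoside salvage kinase, also rose, by 0.65 and 0.52.

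The regulators of S-phase entry moved in both directions, when 29.6% of all genes rose and 28.4% fell in WT, and 26.3% and 28.2% in Nos2-/-. Of 19 E2F, Rb and DREAM genes, 11 fell in each genotype, with 4 rises in WT and 5 in Nos2-/-. Myc, the growth-driving transcription factor, had log2 differences of -3.51 and -3.39 (SE 0.11, limma adjusted p = 4.0e-12 and 5.0e-12). The repressors E2f7 (-2.46 and -1.87) and E2f8 (-1.89 and -1.61) and the E2F partner Tfdp2 (-2.04 and -2.13) also fell. The rises were those of the DREAM subunits Lin54 (0.85 and 0.55), Lin52 (0.34 and 0.25) and Lin37 (0.30 and 0.20) and of E2f4 (0.31 and 0.37), with E2f5 in Nos2-/- (0.22). Of 11 G1 and S cyclins and kinases, 8 fell in each genotype. The D-type cyclins were split. Ccnd1 read 11.96, 11.94 and 11.87 in untreated WT and 9.43, 9.46 and 9.56 after stimulation (log2 difference -2.44 in WT and -2.29 in Nos2-/-), whereas Ccnd2 went from 9.15, 9.08 and 9.40 to 11.71, 11.54 and 11.64 (2.42 and 2.66) and Ccnd3 rose by 1.43 and 1.61. Cdk7 rose by 0.24 in WT. Cdk6, a kinase of the D-type cyclins, fell (-2.48 and -2.57). The 7 CDK inhibitors held 4 rises and 2 falls in WT, with 3 and 2 in Nos2-/-, and 2 falls of 7 are near the share of all genes. Cdkn2d, which inhibits Cdk4 and Cdk6, rose by 1.88 and 2.05, Cdkn1a, the p53 target p21, by 1.08 and 0.94, and Cdkn1b by 0.57 in each genotype, and Cdkn2c, another inhibitor of Cdk4 and Cdk6, fell (-1.70 and -2.04). Cdkn2b rose by 0.43 in WT and fell by 0.58 in Nos2-/-, and Cdkn1c fell by 0.25 in WT.

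Later steps of the cycle moved with the replication genes. Of 15 measured genes of chromatin assembly and the S-phase checkpoint, 14 fell and 1 rose in each genotype. Hells, a chromatin remodeller of dividing cells, fell furthest (-4.16 and -4.26), followed by the checkpoint kinase Chek1 (-2.57 and -2.64) and its adaptor Clspn (-2.37 and -2.25). Of 13 measured mitosis markers, 11 fell and 1 rose, with the spindle motor Kif11 at -2.57 and -2.41 and the topoisomerase Top2a at -2.02 and -2.38. Tpx2, a spindle assembly factor, was the riser, at 1.18 and 1.57. Mki67, the proliferation marker Ki-67, read 8.64, 8.34 and 8.05 in untreated WT and 8.14, 8.28 and 8.18 in stimulated WT, and 8.97, 8.55 and 7.73 against 8.16, 8.31 and 8.16 in Nos2-/-. Its log2 differences of -0.14 and -0.21 were not called (limma adjusted p = 0.6200 and 0.4684). Without untreated Nos2-/- replicate 3 Mki67 was called lower in Nos2-/- (-0.55, limma adjusted p = 0.0085), and without replicate 1 the difference was 0.07.

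**Figure D5:**
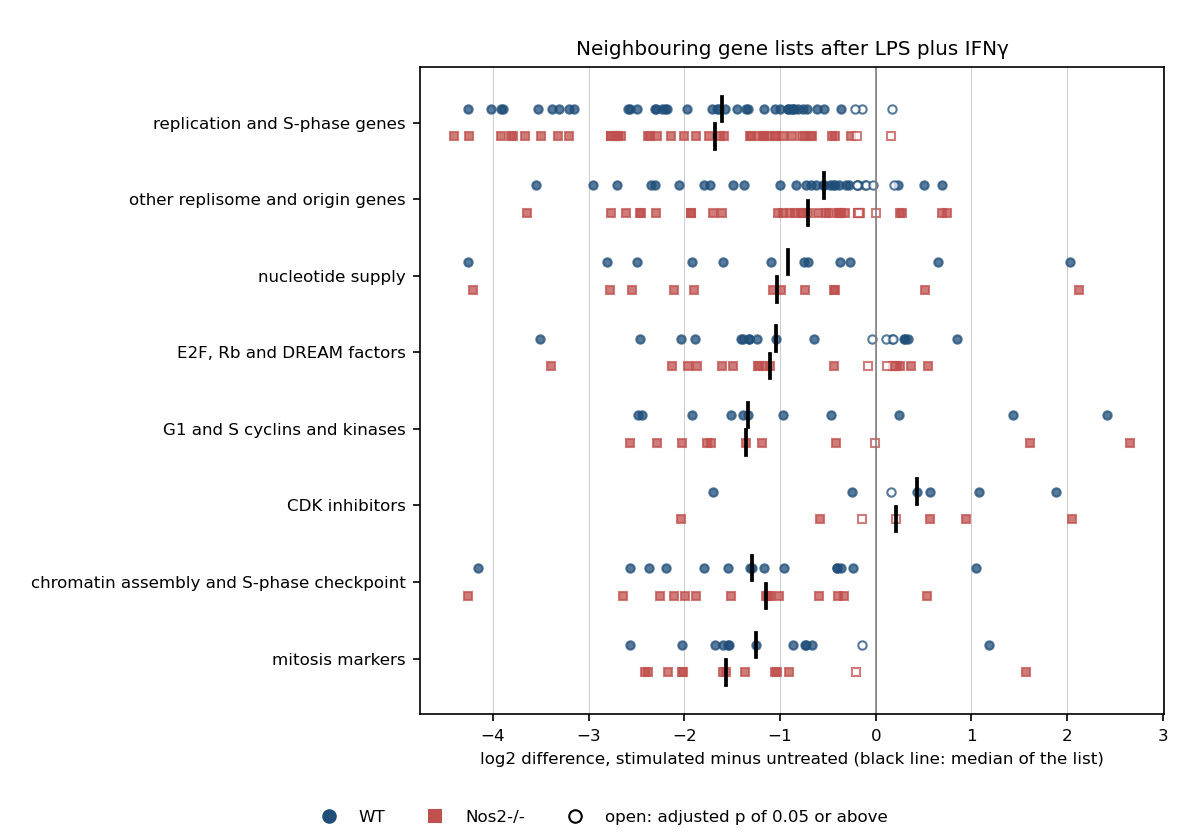
Log2 difference between stimulated and untreated cells of every measured gene in the 42-gene list and in 7 neighbouring lists, in WT (circles) and Nos2-/- (squares), where black lines are medians and open symbols were not called. Of these lists, only the CDK inhibitors have a median that lies right of 0, in both genotypes.

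Between stimulated genotypes, 6 genes of these lists were called, all lower in Nos2-/-, when 1.91% of all genes were called lower and 1.03% higher. They were 1 of 19 E2F, Rb and DREAM genes, 1 of 11 G1 and S cyclins and kinases and 2 of 7 CDK inhibitors. The rest were 2 of 15 genes of chromatin assembly and the S-phase checkpoint. Among 33 other replisome and origin genes, 12 of nucleotide supply and 13 mitosis markers 0 were called. The mitosis markers had a median log2 difference of -0.32, with 11 of 13 below 0, against -0.01 for all genes. In 5 of the 13 every Nos2-/- array was lower and in 0 every one higher, when 8.89% and 8.21% of all genes had that order. For the difference between the responses their median was also -0.32, with 10 below 0 and 0 called. These medians were not read again with single arrays left out. Nasp, a histone chaperone, read 8.97, 9.06 and 9.05 in stimulated WT and 8.22, 8.01 and 8.34 in stimulated Nos2-/- (log2 difference -0.84, limma adjusted p = 8.0e-05), but the difference was -0.05 (adjusted p = 0.8456) once probe sets marked as possibly cross-hybridising were left out. Cdkn2b, an inhibitor of Cdk4 and Cdk6, read 6.97, 6.73 and 6.74 against 5.83, 5.51 and 6.03 (-1.02, limma adjusted p = 2.0e-04), without overlap. The others were E2f6 (-0.58, limma adjusted p = 0.0018), the histone chaperone Asf1a (-0.49; 0.0119), Cdkn1a (-0.43; 0.0177) and Cdk7 (-0.28; 0.0492). The call was lost for Asf1a without stimulated WT replicate 2 (adjusted p = 0.0543), for Cdkn1a without stimulated WT replicate 1 (0.0717) or stimulated Nos2-/- replicate 2 (0.0601), and for Cdk7 without any array but stimulated Nos2-/- replicate 1 (up to 0.1634). With only the groups compared, Asf1a (0.0861) and Cdkn1a (0.0706) were lost too, as they were without moderation (0.0536 and 0.0601). The mean of all probe sets of Asf1a differed by -0.26 and was not called (limma adjusted p = 0.1008). No gene of the 7 lists was called between untreated genotypes, when 0.00550% of all genes were called in each direction.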

How the data were processed

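The authors normalised the array images by RMA in Partek, whose version is not given in the sources used here, and deposited log2 signals. No version of the probe annotation was stated by the authors. Without 64 control probe sets, 45037 remained, of which the platform annotation gives 34945 exactly 1 gene (used here), 932 several and 9160 none. Array medians ran from 5.138 to 5.213, and arrays of a group correlated at 0.9965 or above. The number of arrays limits the precision.

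All 18193 genes entered 1 limma fit (version 3.58.1, R 4.3.3, lmFit then eBayes, two-sided) with a mean for each of the 4 groups, and a call needed an adjusted p (Benjamini-Hochberg) under 0.05. Intervals are 95%. The methods print 1.5-fold and a false discovery rate of 0.5, which were tried as an alternative. The 42 genes and the further lists were chosen with earlier results of these data known. Values on every array are given for the 2 called genes of each role with the largest WT change, genes called between genotypes, and exceptions. Of each further list the largest called changes were named, and genes behind counts of 5 or fewer were named after their values were seen. The alternatives were only the groups compared, no moderation, an intensity trend, array median centring, renewed quantile normalisation, genes below the median gene left out, the mean of all probe sets, no _s_at or _x_at probe sets, the replicate block and leaving out each array. Tables and figures were made with Python 3.11.15 and matplotlib 3.10.9. Genes of the further lists that had no probe set of their own were not analysed here.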

Additional observations from a re-analysis of the deposited data

Results flagged for a closer look

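When the responses of Nos2-/- and WT were compared by limma, 3 genes of the neighbouring lists were called and 0 of the 42 replication genes. All 3 had a more negative or less positive change in Nos2-/-, when 0.676% of all genes were called that way and 0.302% the other. They were 1 of 19 E2F, Rb and DREAM genes, 1 of 7 CDK inhibitors and 1 of 15 genes of chromatin assembly and the S-phase checkpoint. Cdkn2b, an inhibitor of Cdk4 and Cdk6, responded by -1.01 (log2) relative to WT (SE 0.17; adjusted p = 0.0089). It rose from 6.38, 6.33 and 6.45 to 6.97, 6.73 and 6.74 in WT and fell from 6.28, 6.53 and 6.31 to 5.83, 5.51 and 6.03 in Nos2-/-, without overlap in either genotype. Nasp, a histone chaperone, differed by -0.89 (SE 0.12; adjusted p = 0.0021), with a fall of 0.24 in WT and of 1.13 in Nos2-/-. That call was lost without _s_at and _x_at probe sets (-0.17; adjusted p = 0.6718) and with the mean of all probe sets (-0.29; 0.2377). E2f6, a repressor of the E2F family, differed by -0.64 (SE 0.12; adjusted p = 0.0258), with a fall of 1.32 in WT and of 1.96 in Nos2-/-. The call of E2f6 was lost with any of 7 single arrays left out, at adjusted p of 0.0528 to 0.0804.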

How the results depend on the processing

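The number of the 42 genes called lower after stimulation stayed close to 39 in WT and 40 in Nos2-/- under the 22 alternatives. In WT, 39 were called lower with any array left out and 36 to 40 otherwise, and in Nos2-/- 40 to 41 and 37 to 40. The lowest number in WT came with genes below the median gene left out, when 38 of the 42 were tested. In Nos2-/- that setting gave 37. The 1.5-fold threshold of the methods also dropped Rfc2, Pola2 and Tyms there, which fell by 1.20-fold, 1.37-fold and 1.34-fold. Between stimulated genotypes the number called lower, 1 gene (Pcna), was 0 with only the groups compared (adjusted p = 0.1193) or with the thresholds of the methods, and 2, with Gmnn, under the intensity trend (adjusted p = 0.0271) or without dim genes (0.0409). With an array left out it was 0 to 2, the 2 again with Gmnn and without untreated Nos2-/- replicate 3 (0.0326). The difference between the responses gave 1, Pcna, under the intensity trend and 0 otherwise. Tyms turned to 0.01 in WT (adjusted p = 0.8381) and -0.02 in Nos2-/- (0.7556) as the mean of all its probe sets, and Rfc2 in Nos2-/- was lost after renewed quantile normalisation (-0.15; 0.0872). As the mean of all its probe sets, Orc1 was called lower in WT (-0.42, limma adjusted p = 0.0115) and Nos2-/- (-0.44; 0.0090). Rfc2 was called lower in WT in that setting (-0.29; 0.0011). Whether the replicate numbers pair the samples could not be told with 3 arrays per group. Same-numbered arrays correlated at -0.26 to 0.211 after group means were removed, and between untreated genotypes at 0.106, 0.032 and 0.211. On untreated replicates 1 to 3 the median deviation of the mitosis markers was 0.96, 0.70 and 0.42 in WT. In Nos2-/- it was 1.15, 0.89 and 0.08. With the replicate block, 39, 40, 1, 0 and 0 genes were called lower in the 5 comparisons and 0 higher. The differences in response of Cdkn2b (-1.01; 0.0815) and E2f6 (-0.64; 0.0929) were lost without moderation. E2f6 was also lost as the mean of its probe sets and with most single arrays left out, and Cdk7 between stimulated genotypes under most alternatives. The causes were not tested.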
